A study of Mus musculus with 48 samples.

Results

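The expression profile of NIH3T3 cells 27 hours after forskolin was set against the profiles of the hours around it. The members are 5 of the 48 arrays of the series, namely the array of hour 27 and those of hours 25, 26, 28 and 29, with 1 array at each hour and no replicate. The hour was selected because the values of Ciart, Bhlhe40, Rgs16 and Nampt were high on that array, so every difference between hour 27 and its neighbours below was chosen by the values themselves, is given as a description and carries no test. The excursion of a probe set is its log2 value at hour 27 minus the mean of the 4 neighbours, and the same statistic was taken for each of the 44 hours from hour 22 to hour 65, so that hour 27 could be ranked among them. Since a single culture sample stands behind hour 27, an event in that dish, in its RNA or on its array and a change that every culture undergoes at that hour cannot be told apart.

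NIH3T3 is an immortalized line of mouse embryonic fibroblasts. The cells were confluent, were kept in medium with fetal calf serum, and were treated with forskolin, an activator of adenylyl cyclase that raises cyclic AMP and synchronises the clocks of the cells in a dish. All 48 samples, from hour 20 to hour 67, received forskolin, and there were no untreated samples. Total RNA of each sample was hybridized to a mouse expression array with 45037 probe sets besides 64 controls, and values are log2 intensities.

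In the circadian clock, CLOCK and BMAL1 activate genes through E-box elements, and their targets PER, CRY, CIART, DEC1 (the product of Bhlhe40) and REV-ERBα (the product of Nr1d1) act as repressors. Fibroblasts also answer cytokines, serum and low oxygen with rapid transcription. NF-κB moves to the nucleus when its inhibitors are degraded and activates chemokines, cytokines and the genes of those same inhibitors, immediate early genes such as Fos are switched on without new protein synthesis, and HIF-1 activates glycolysis and the prolyl hydroxylases that mark HIF-1 itself for degradation.

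Ciart encodes a transcriptional repressor of CLOCK and BMAL1. Its promoter is shown because it holds 3 copies of the E-box CACGTG, marked in capitals, which begin 116, 58 and 44 bases before the annotated start. The 250 bases upstream of the start lie at chr3:95882229-95882478 on the minus strand (RefSeq, GRCm38.p6). On either strand, 6.02% of the 32851 promoters of that length in the RefSeq table held at least 1 CACGTG.

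Ciart: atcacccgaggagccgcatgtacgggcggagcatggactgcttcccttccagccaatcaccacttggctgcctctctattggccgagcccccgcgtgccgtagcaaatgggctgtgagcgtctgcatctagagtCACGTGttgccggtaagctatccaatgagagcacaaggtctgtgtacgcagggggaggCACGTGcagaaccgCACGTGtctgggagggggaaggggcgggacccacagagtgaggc

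The log2 value of Ciart was 6.06 at hour 25, 5.89 at hour 26, 10.41 at hour 27, 6.47 at hour 28 and 6.04 at hour 29. Hour 27 stood apart from its neighbours, whose values did not overlap with it, and from the 43 arrays outside hours 25 to 29, which reached no more than 7.15. The excursion was 4.30, against a neighbour mean of 6.11 ± 0.25 (SD, n = 4). The neighbours of Ciart lay near the floor of the array values, so that no fold is given. In these bulk samples more cells of a type and more RNA per cell cannot be told apart.

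Rgs16 encodes a GTPase-activating protein of G protein signalling that is under clock control in several tissues. Its brightest probe set read 5.82, 5.82, 7.41, 6.17 and 5.79 from hour 25 to hour 29, and a further probe set read 5.59, 5.59, 8.01, 5.60 and 5.59. In both of them hour 27 was the highest of the 48 arrays, while the remaining Rgs16 probe set stayed at the floor with 5.55 at hour 27. Outside the window the brightest probe set reached 6.95 at hour 45, and the further one reached 6.93 at hour 24. No fold is given, because the neighbours of Rgs16 were also near the floor.

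Bhlhe40 and Nampt were well above the floor throughout. Bhlhe40 read 14.93, 15.09, 16.35, 15.37 and 15.27 from hour 25 to hour 29, which made hour 27 higher than the neighbour mean by 1.18, or 2.26-fold. Nampt, the rate-limiting enzyme of NAD salvage, read 13.06, 13.17, 13.82, 13.12 and 13.12, a 1.63-fold difference. Against the 43 arrays outside the window the margin was smaller, since Bhlhe40 reached 16.23 at hour 45 and Nampt 13.71 at hour 36. The 3 Nampt probe sets gave excursions of 0.70, 0.78 and 0.68, and in each of them hour 27 ranked first of the 44 hours.

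**Figure D1:**
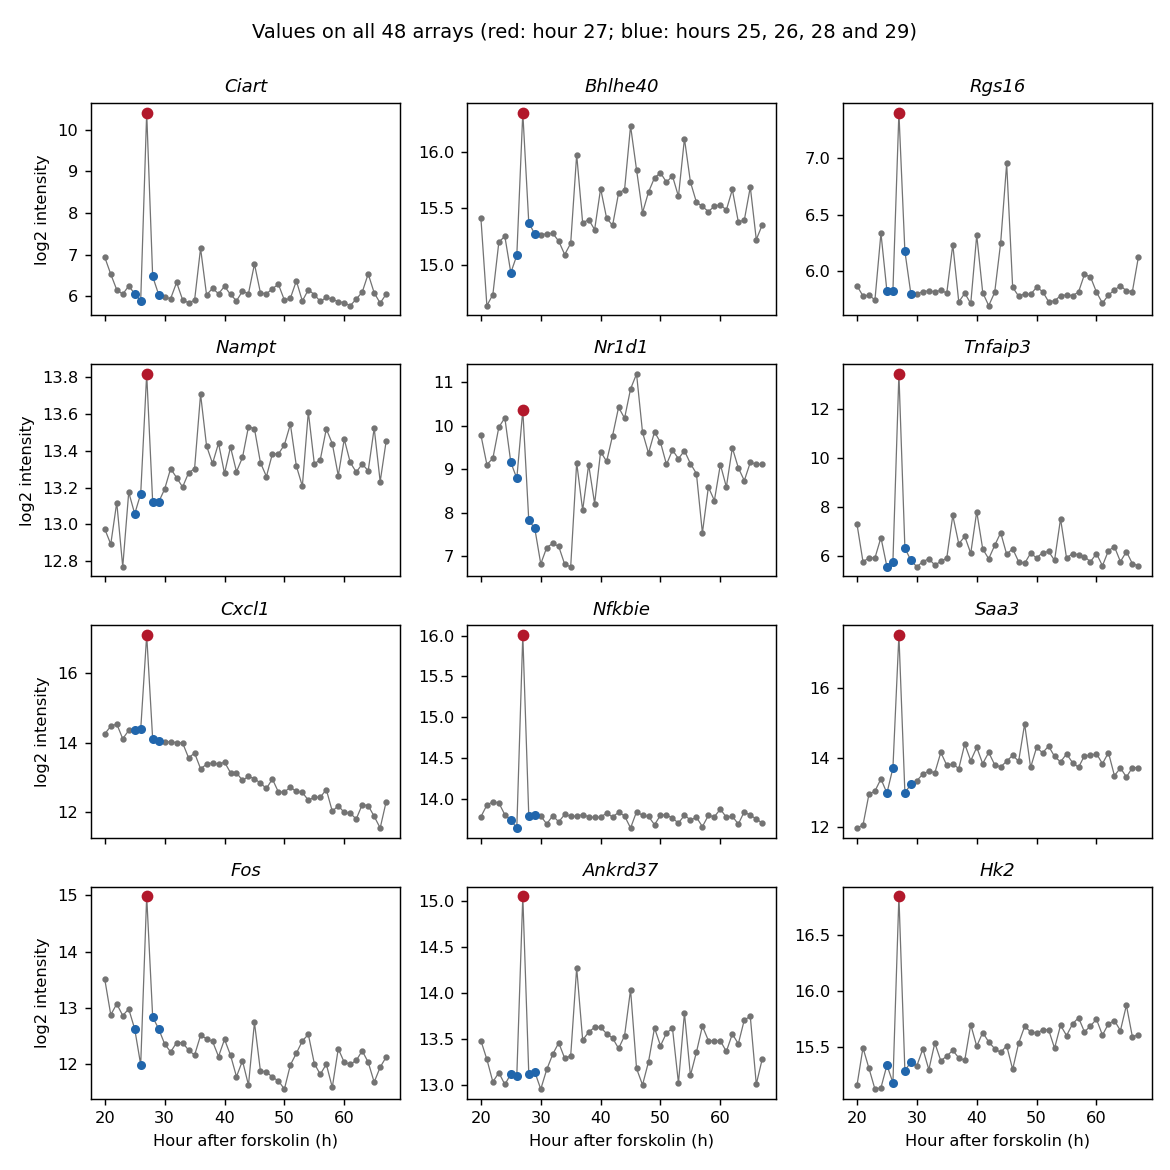
Log2 intensity (vertical axis, scaled separately for each gene and not starting at 0) of 12 genes against hours after forskolin (horizontal axis), 1 array per hour, each gene by its brightest probe set. The red point of hour 27 stands above the 4 blue neighbours in every panel, as for Ciart with 10.41 against 5.89 to 6.47, while in Nr1d1 hour 46 was higher still.

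Of the 16 genes in the core clock list, 15 had a probe set with a single gene symbol and 12 of these had a mean above the level minimum of 6.67, the median of all probe sets over the 43 arrays outside hours 25 to 29. A gene was shown by its brightest probe set, and a difference past 1.5-fold was counted. Over all 10364 genes above the minimum, 2.06% were higher than the neighbours by that measure and 0.453% were lower, and hour 27 had the highest excursion of the 44 hours in 2.8% and the lowest in 1.17%. Among the 12 core clock genes 2 were higher and 0 lower, and their median excursion was 0.19 against 0.01 over all genes. Hour 27 had the highest excursion of the 44 hours in 4 of the 12, namely Bhlhe40, Nr1d1, Cry1 and Rora. Bhlhe40 was among the genes by which hour 27 was selected, so its part in these values was set in advance.

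The 2 core clock genes past the threshold were Bhlhe40 and Nr1d1. Nr1d1 read 9.16, 8.79, 10.36, 7.82 and 7.64 from hour 25 to hour 29, so that the neighbours before hour 27 were higher than those after it, and hour 27 stood 2.0 above their mean of 8.35 ± 0.73 (SD, n = 4). On 3 other arrays the level was higher still, and hour 46 reached 11.19. Cry2 and Per1, both repressors of the feedback loop, missed the threshold with excursions of 0.53 and 0.50, and both ranked 3 of the 44 hours. The level of Cry2 at hour 27, 13.10, was its highest of the 48 arrays. Per2 had its highest level of all 48 arrays at hour 27, with 14.38, but its neighbours at hours 26 and 28 were close to it, with 14.35 and 14.29. The remaining members lay between -0.06 (Clock) and 0.23 (Rora), with Arntl, which encodes BMAL1, at 0.18, Cry1 at 0.19, Nr1d2 at 0.12, Per3 at 0.09 and Npas2 at 0.00. Dimmer probe sets of 2 of these genes were past the threshold, as 1 of the 4 Clock probe sets above the minimum was at -0.70 and the 6 of Rora ranged from -0.45 to 0.74. In Cry1 and Rora the excursion at hour 27 was small but the highest of the 44 hours, and their levels there ranked 2 and 35 of the 48. Rorb and Bhlhe41 were at the floor.

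In the clock output list 12 of 15 genes were above the minimum, of which 1 (Nampt) was higher and 0 were lower. Nampt was also a gene of the selection, so that its call was set in advance as well. Tsc22d3, a glucocorticoid-responsive leucine zipper gene, had its lowest excursion of the 44 hours at hour 27, at -0.50, with 15.08, 15.18, 14.67, 15.18 and 15.27 from hour 25 to hour 29. Klf10 had its highest excursion there, at 0.36. Of the clock-controlled PAR bZIP factors, none was past the threshold, with Dbp at 0.13, Tef at 0.04 and Hlf at -0.40, and Nfil3, which binds the same sites as a repressor, was at 0.19. The others were Sphk2 at 0.36, Klf9 at -0.02, Pdk4 at -0.06, Wee1 at -0.09 and Usp2 at -0.25, while Ppara and Gys2 were at the floor. In the list of clock kinases and ligases, 8 of the 10 genes with a probe set were above the minimum and none was past 1.5-fold, with excursions from -0.11 to 0.09.

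The 43 arrays outside hours 25 to 29, which do not enter the excursion at hour 27 but do enter its rank among the 44 hours, were fitted with a linear term and a cosine of a 24-h period. By limma's moderated F-test with Benjamini-Hochberg adjustment, 91 of the 45037 probe sets had a cosine (0.202%). Of the 12 core clock genes, 7 did, namely Npas2, Per2, Per3, Cry1, Cry2, Nr1d1 and Nr1d2, and in clock output Dbp and Tef did. Nr1d1 had an amplitude (mean to peak, log2) of 1.14 with a limma adjusted p of 1.40e-05, and the standard error of its cosine coefficient alone was 0.15. None of the 4 genes by which hour 27 was selected passed that test. The amplitude was 0.11 for Ciart, 0.12 for Bhlhe40, 0.08 for Rgs16 and 0.04 for Nampt, each with a limma adjusted p of 0.740. At hour 51, 24 h after hour 27, the excursion of Ciart was -0.16 and that of Bhlhe40 was -0.01.

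Genes of NF-κB signalling and chemokines had the largest median excursion of the 35 lists. Of the 20 genes listed, 19 had a probe set and 12 were above the minimum, and of these 10 were higher and 0 lower, with a median excursion of 1.67. Over all 10364 genes above the minimum, 2.06% were higher and 0.453% lower. Hour 27 had the highest excursion of the 44 hours in 12 of 12, against 2.8% of all genes. It also had the highest level of the 48 arrays in 12 of 12, for which no share over all genes is given. The minimum was set on arrays that do not include hour 27, so that it did not filter the list on the value described. The list itself was chosen with earlier results of these data known.

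Cxcl1, a neutrophil-attracting chemokine, is shown with its promoter because the kappa B consensus, the site bound by NF-κB, overlaps itself there on both strands, beginning 71 and 70 bases before the start. The motif was searched after the values had been seen, and 5.93% of all promoters held it on either strand. The window is chr5:90890995-90891244 on the plus strand (RefSeq, GRCm38.p6), with the matches in capitals.

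Cxcl1: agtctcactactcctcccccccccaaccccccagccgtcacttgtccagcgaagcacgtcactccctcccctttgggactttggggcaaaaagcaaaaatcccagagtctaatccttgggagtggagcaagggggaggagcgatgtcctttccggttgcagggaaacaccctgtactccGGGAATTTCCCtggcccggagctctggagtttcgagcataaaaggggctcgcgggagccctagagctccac

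The brightest Cxcl1 probe set read 14.38, 14.38, 17.10, 14.10 and 14.05 from hour 25 to hour 29. Hour 27 exceeded the neighbours by 2.88 (7.35-fold), whereas the highest excursion at any other hour was 0.39. The other 2 Cxcl1 probe sets, whose suffixes mark possible matches to further transcripts, gave 3.21 and 2.91. Ccl2, a monocyte-attracting chemokine, read 15.81, 15.70, 17.70, 15.76 and 15.92. Ccl7 and Cxcl5 exceeded their neighbours by 1.69 and 1.18.

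The inhibitors and subunits of NF-κB itself were also high at hour 27. Nfkbie, which encodes IκBε, read 13.73, 13.64, 16.01, 13.79 and 13.80, and its 43 arrays elsewhere lay between 13.64 and 13.96. The excursion of 2.27 compares with a standard deviation of 0.06 for the excursions of the same probe set at the 35 hours whose 5 arrays do not include any of hours 25 to 29. A second Nfkbie probe set gave 2.65. Nfkbia, which encodes IκBα, exceeded its neighbours by 0.76 in its brightest probe set, at 17.84, and by 1.06 to 1.96 in 4 others. Relb was higher by 1.64 and Nfkb2 by 0.93.

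Saa3, an acute phase serum amyloid gene, read 12.99, 13.71, 17.53, 12.99 and 13.24, an excursion of 4.29. Il6 read 13.31, 13.39, 15.07, 13.15 and 12.93. The median of Il6 over the other 43 arrays was 11.14, and hour 27 was above their highest value, 13.74 at hour 24. Vcam1 and Ptx3 missed the 1.5-fold threshold with 0.58 and 0.49.

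Of the 7 list members below the level minimum, 5 were at or near the floor in the neighbours and far above it at hour 27. Tnfaip3, which encodes the deubiquitinase A20, read 5.56, 5.77, 13.45, 6.32 and 5.82 and did not exceed 7.81 elsewhere. Lif, a cytokine of the interleukin-6 family, read 6.63, 6.16, 12.99, 6.66 and 6.08 but reached 9.38 outside the window, at hour 20. Icam1 read 10.09 at hour 27 and between 5.47 and 5.5 on the 43 arrays outside the window. Ccl5 and Cxcl10 reached 10.92 and 11.42 from neighbour means of 5.52 and 6.17. Cxcl2 and Ccl20 stayed at the floor at hour 27, with 5.51 and 5.38. Csf3, the gene of granulocyte colony-stimulating factor, was in no list and was picked after its values were seen. It read 14.55 at hour 27 and between 5.45 and 5.49 on the 43 arrays outside the window.

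**Figure D2:**
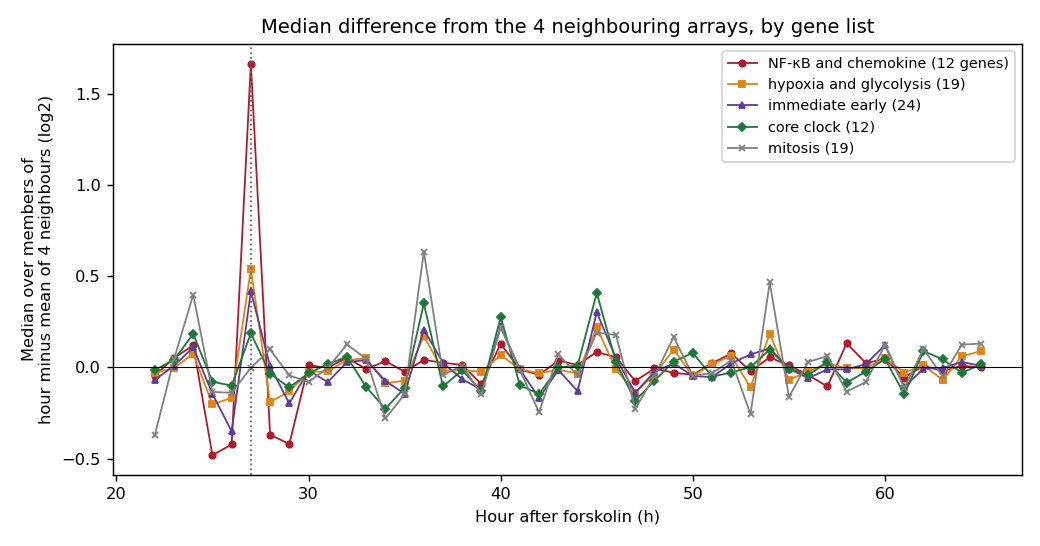
Median over a list's members of the difference between an hour and the mean of its 4 neighbours (vertical axis, log2), for each of the 44 hours (horizontal axis, hours after forskolin), with the members above the level minimum counted in brackets. At hour 27 the NF-κB and chemokine list stood at 1.67, and its negative values at hours 25, 26, 28 and 29 arise because hour 27 is then among the neighbours.

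Hours 26 and 28 bounded the difference. The median difference of its members from their mean over the 43 other arrays was 0.00 at hour 26, 1.66 at hour 27, 0.08 at hour 28 and 0.01 at hour 29. At the 35 hours that share no array with hour 27's window, the median excursion of the list lay between -0.11 (hour 57) and 0.13 (hour 58). None of the 12 members had a 24-h cosine in the 43 arrays by the limma test, with adjusted p-values from 0.237 to 0.834 among the 10 that were higher at hour 27.

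Genes of hypoxia and glycolysis formed another group. Of the 20 with a probe set, 19 were above the minimum, and of these 9 were higher than the neighbours and 0 lower, while 19 of 19 had a positive excursion. The median was 0.54, against 0.01 over all genes, of which 2.06% were higher. Hour 27 had the highest excursion of the 44 hours in 15 of the 19, against 2.8% of all genes.

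Ankrd37, an ankyrin repeat gene known as a HIF-1 target, is shown because its promoter holds ACGTG, the core of the hypoxia response element, at 241 and 6 bases before the start. The letters ACGTG are also part of the E-box CACGTG, and 16.6% of all promoters held ACGTG on either strand. The window is chr8:45999851-46000100 on the minus strand (RefSeq, GRCm38.p6), with the matches in capitals.

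Ankrd37: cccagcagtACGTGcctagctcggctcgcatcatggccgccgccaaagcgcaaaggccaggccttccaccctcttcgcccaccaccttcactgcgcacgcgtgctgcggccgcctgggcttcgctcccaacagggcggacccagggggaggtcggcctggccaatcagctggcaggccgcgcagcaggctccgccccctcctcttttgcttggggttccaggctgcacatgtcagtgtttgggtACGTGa

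Ankrd37 read 13.12, 13.10, 15.05, 13.12 and 13.14 from hour 25 to hour 29, so that the 4 neighbours lay within a standard deviation of 0.02 and hour 27 was 3.81-fold above them. Egln3, a HIF prolyl hydroxylase, read 11.01, 10.96, 13.50, 11.33 and 11.24, and its relative Egln1 was higher by 0.83. Egln3 came close to its hour 27 level at hour 36, with 13.23, and the next highest excursions of Ankrd37 and Egln3 were also at hour 36, with 0.86 and 1.44.

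Hk2, the inducible hexokinase, read 15.33, 15.18, 16.85, 15.28 and 15.36, a 2.95-fold difference, and its next highest excursion was 0.23. Adm, the vasodilator peptide adrenomedullin, was higher by 1.26 in its brightest probe set and by 2.54 in another, and its neighbours (12.87 to 13.41 in the latter) lay below its median of 14.33 over the other 43 arrays. Pfkp was higher by 1.17 and Bnip3, a mitophagy receptor, by 0.93, followed by Higd1a at 0.75 and Ndrg1 at 0.72. The glucose transporter Slc2a1, lactate dehydrogenase Ldha and the growth factor Vegfa missed the threshold with 0.47, 0.31 and 0.35, although hour 27 had the highest excursion of the 44 hours for each. Pgk1 was at 0.07 and ranked ninth. Car9, a carbonic anhydrase below the level minimum, read 5.51, 5.51, 6.52, 5.52 and 5.51. Fam162a and Mgarp, both known as HIF-1 targets but not in the list, were among the 12 largest excursions that were also the highest of the 44 hours. Mgarp read 6.20, 6.74, 10.02, 6.28 and 6.98, and hours 24 and 30 were also low, at 7.83 and 7.13. Its median over the other 43 arrays was 9.79 and hour 27 ranked 17 of the 48 levels. Mgarp at hour 27 was thus high against the hours around it, but not against the whole series.

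Immediate early genes were higher as well, in 9 of the 24 above the minimum and lower in 0, with a median of 0.42. Over all genes 2.06% were higher. By the same measure 8 members were higher and 1 lower at hour 45, where 1284 probe sets were higher, against 558 at hour 27. Fos, which encodes a subunit of AP-1, is shown because its promoter holds TGACG, part of the cyclic AMP response element, at 129 and 66 bases before the start, and 17.8% of all promoters held TGACG on either strand. The kappa B consensus also had a match in this window, with its first base at position -214 from the start, which is not capitalized. The full element TGACGTCA was not found there and was present in 1.55% of all promoters. The window is chr12:85473640-85473889 on the plus strand (RefSeq, GRCm38.p6), with the matches in capitals.

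Fos: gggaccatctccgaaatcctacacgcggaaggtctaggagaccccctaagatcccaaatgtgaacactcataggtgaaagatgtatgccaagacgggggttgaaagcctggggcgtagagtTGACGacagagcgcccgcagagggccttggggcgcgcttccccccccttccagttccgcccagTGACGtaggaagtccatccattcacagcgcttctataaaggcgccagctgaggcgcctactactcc

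Fos read 12.63, 11.99, 14.98, 12.84 and 12.63 from hour 25 to hour 29, an excursion of 2.46, and its highest value outside the window was 13.51 at hour 20. Fosl1, another AP-1 subunit, was higher by 1.87 and 2.54 in its 2 probe sets. Ier3, a stress-responsive survival gene, read 15.32, 14.98, 17.47, 15.17 and 15.29, and Zfp36, which encodes the mRNA-destabilizing protein tristetraprolin, read 13.12, 13.22, 15.03, 13.32 and 12.94. For these 4 genes hour 27 was the highest of the 48 arrays. Atf3, Maff, Egr2, Klf2 and Egr1 were also past the threshold, from 0.67 for Egr1 to 1.59 for Atf3, but Egr1 was higher on 3 other arrays and Klf2 on 5.

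The group was not uniform. Jun, Dusp1 and Btg2 were higher by 0.34, 0.40 and 0.56, Myc by 0.22 and Dusp6 by 0.16, whereas Fosl2 and Dusp5 were at -0.06 and -0.07. Immediate early genes were also high before the window, with a median 0.49 above their mean over the 43 other arrays at hour 23 and 0.53 above it at hour 24, against 0.15 at hour 26 and 0.66 at hour 27. Fosb and Dusp2 stayed at the floor at hour 27. Junb, the remaining member below the level minimum, read 7.02, 6.87, 8.37, 6.53 and 7.08.

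**Figure D3:**
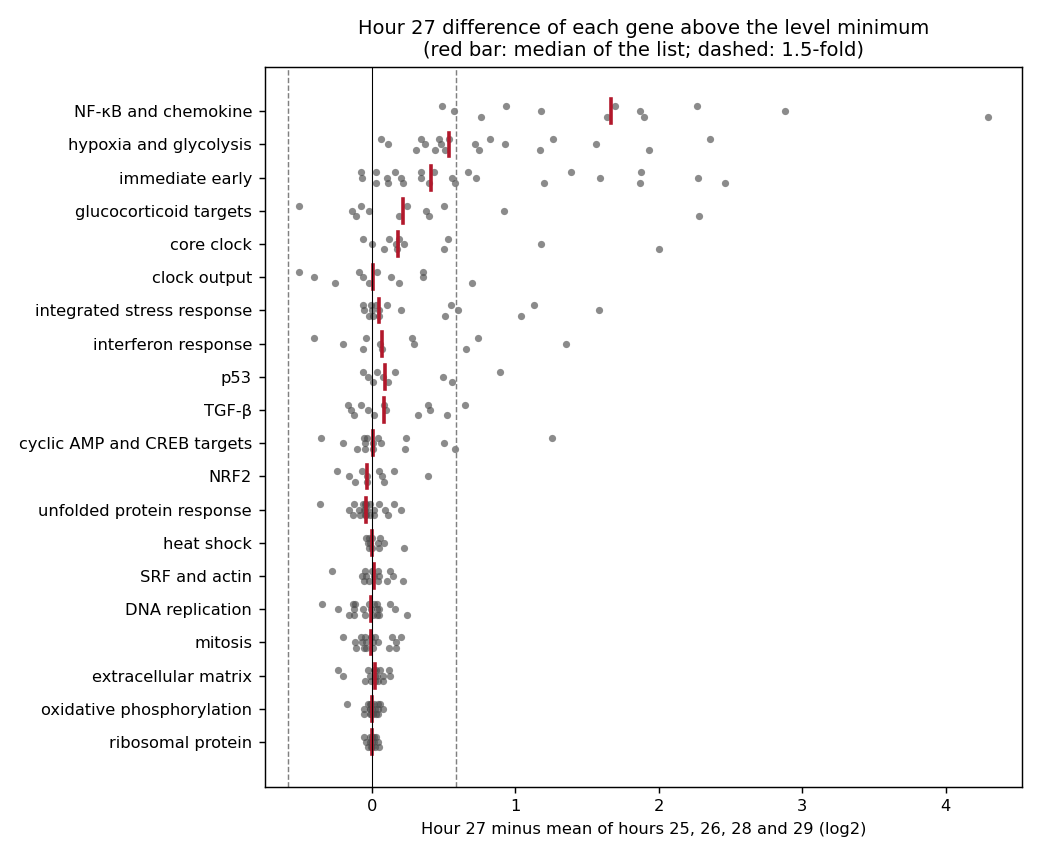
Difference between hour 27 and the mean of hours 25, 26, 28 and 29 (horizontal axis, log2) for each gene above the level minimum in 20 lists (vertical axis), with a red bar at each list's median and dashed lines at 1.5-fold. The NF-κB and chemokine, hypoxia and glycolysis, and immediate early lists have medians of 1.67, 0.54 and 0.42, and the lists from NRF2 downward lie within the dashed lines.

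Several other lists held single genes past the threshold. Targets of cyclic AMP and CREB, the pathway forskolin acts on, had 1 of 16 higher (Ptgs2, cyclooxygenase 2, at 1.25) and a median of 0.01, with the nuclear receptors Nr4a1, Nr4a2 and Nr4a3 at 0.58, 0.07 and 0.23. Glucocorticoid targets had 2 of 12 higher, Lcn2 at 2.28 and Angptl4 at 0.92, while Fkbp5 and Sgk1 were at -0.08 and -0.11, and Lcn2, also a known NF-κB target, ranged from 5.59 to 13.60 on the 43 arrays outside the window. The integrated stress response had 4 of 17 higher, namely Vldlr (1.58), Ppp1r15a (1.13), Sesn2 (1.04) and Trib3 (0.60), whereas its main effectors Atf4 and Ddit3 were at -0.02 and 0.21. At hour 27 Vldlr ranked 30 and Trib3 ranked 29 of their 48 levels, so that the neighbours of both were low. The other probe set above the minimum missed 1.5-fold in Vldlr (0.45), Sesn2 (0.17) and Trib3 (0.47). Ppp1r15a had a similar excursion at hour 24 (1.10) and a higher level at hour 45, with 11.18 against 11.00 at hour 27. The interferon response had 3 of 11 higher, namely Irf1 (1.35), Gbp2 (0.74) and Ifit1 (0.66), of which Ifit1 read 8.05 at hour 27 and 7.98 at hour 28, and Mx1, Rsad2 and Irf7 stayed near the floor. The p53 list had 1 of 10 (Cdkn1a, 0.89), TGF-beta 1 of 13 (Smad7, 0.65) and NAD salvage 1 of 10 (Nampt, by which the hour was selected). The RGS family had 0 of 7 above the minimum past the threshold, with Rgs3 at 0.31 and Rgs2 at 0.01.

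In the remaining functional lists no gene above the minimum was past 1.5-fold upward. These were heat shock (12 genes), the unfolded protein response (23), NRF2 (11), SRF and actin (15), DNA replication (21), mitosis (19), cholesterol synthesis (16), extracellular matrix (17), ribosomal protein (15), oxidative phosphorylation (20), proteasome (22), nuclear noncoding RNA (8) and splicing and RNA binding (15). Their medians lay between -0.04 and 0.03. The nuclear noncoding RNA list had 1 gene lower, Snhg3, at -0.73, and the others had 0. Snhg3 read 9.95 at hour 27, above its median of 9.19 over the other 43 arrays. Its neighbours (mean 10.68) and hours 24 and 30 (10.91 and 10.07) were higher. Its excursion was lower still at hour 46, at -1.30.

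The cell type lists were read as a check of the label. All 10 fibroblast markers were above the minimum, with a summed level of 21.56 (log2) at hour 27 against 21.54 to 21.56 in the neighbours, and 0 of 10 were past 1.5-fold. None of 8 epithelium and 8 endothelium markers was above the minimum, and adipocyte, skeletal muscle and neuron markers (3, 1 and 2 above it) had 0 past the threshold. The summed level of 9 macrophage markers was 13.76 at hour 27, against 13.06 to 13.17 in the neighbours and 12.31 to 13.37 over the other 43 arrays. In that list Cd14, an endotoxin co-receptor also made by fibroblasts, read 12.92, 12.85, 13.59, 12.68 and 12.77, whereas the defining markers Ptprc, Adgre1, Itgam and Tyrobp were at the floor, at 5.45, 5.44, 5.5 and 5.39. Csf1r read 7.01 at hour 27 and 5.38 to 5.5 in the neighbours, but reached 8.81 elsewhere, and Cd68 was at 10.16, below hours 28 and 29. The part of these markers in the NF-κB values was not tested.

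Array quality at hour 27 was within the range of its neighbours or of the series. For β-actin, the 3′ minus 5′ difference, a measure of RNA integrity, was 1.02, 1.14, 1.22, 1.27 and 1.03 (log2) from hour 25 to hour 29, while 10 of the 48 arrays were over 1.4. The BioB spike-in was 14.62 against 14.53 to 14.78. The upper quartile of the array was 13.22 against 13.19 to 13.20, but it spanned only 13.17 to 13.26 over all 48 arrays. It therefore says little on the quality of a single array.

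Over all 22518 probe sets above the minimum, 558 (2.48%) were higher at hour 27 by more than 1.5-fold and 448 (1.99%) were lower. The downward count depended on the reference, and was 258 with 6 neighbours, 249 as a residual from the cosine fit, 298 with the β-actin difference removed and 249 with the first principal component removed, where the upward count was 485, 466, 513 and 501. The values of single-symbol probe sets just inside and just outside the threshold were 0.5861 for AA986860 and 0.5849 for Srprb upward, and -0.5851 for Mir1949 and -0.5845 for Elavl2 downward. In each direction hour 27 ranked 13 of the 44 hours by these counts, and hour 36 had 3010 upward. Past 3-fold, 59 probe sets were higher at hour 27 and 9 lower, and the median of the other hours was 5 higher.

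Probe sets that were past 2-fold upward and had their highest excursion of the 44 hours at hour 27 numbered 153, against 11 past 2-fold downward with their lowest. At the other hours the former number had a median of 12, and only hour 36 exceeded 153, with 993. Of the 153, 123 had a single symbol and came from 100 genes. At 23 hours none of the 5 arrays had a β-actin difference over 1.4, a restriction added after the data were seen; among them hour 27 had the most probe sets past 2-fold upward, 182, ahead of hour 54 with 138, whereas downward it ranked sixth with 78.

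**Figure D4:**
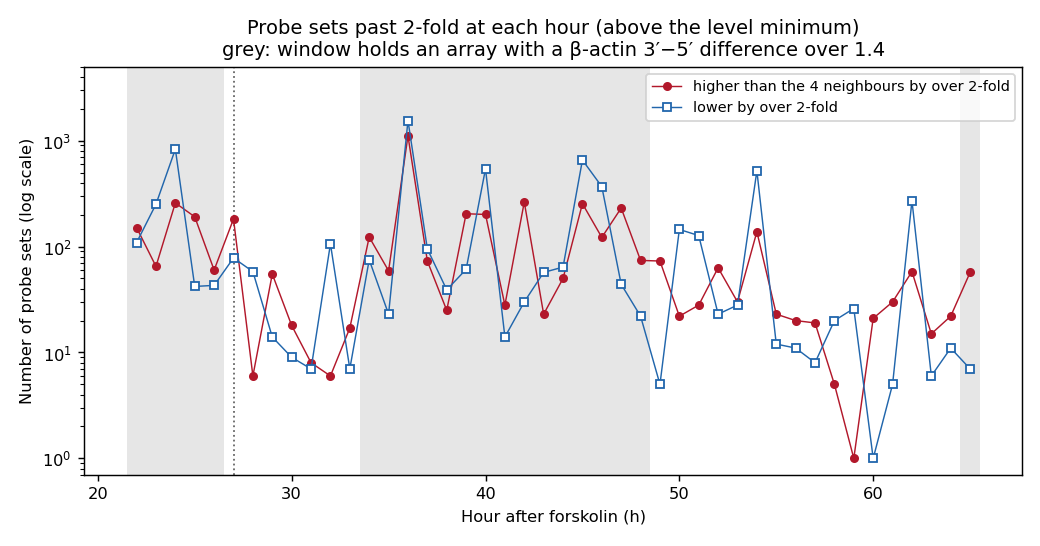
Number of probe sets (vertical axis, log scale) past 2-fold above (red) or below (blue) the mean of the 4 neighbouring arrays at each hour from 22 to 65 (horizontal axis), among 22518 above the level minimum. Hour 27 (dotted line) had 182 above and 78 below; grey bands mark windows that hold an array with a β-actin difference over 1.4.

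Among probe sets with a single symbol above the minimum whose excursion was the highest of the 44 hours at hour 27, the 12 largest came from 10 genes, namely Saa3, Abcc3, Mgarp, Cxcl1, Nfkbiz, Nfkbie, Fam162a, Fosl1, Adm and Fos. Abcc3, an organic anion exporter, read 10.88, 10.42, 13.92, 10.32 and 9.90. Nfkbiz, which encodes the nuclear IκBζ, read 10.25, 10.16, 12.97, 10.52 and 10.25 in the probe set that was selected, and its excursion was 0.99 and 0.46 in the 2 others. Of these 10 genes, 6 had several probe sets above the minimum, and in 5 of the 6 at least 2 probe sets were past 1.5-fold, the exception being Fam162a with 2.63 and 0.49.

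Among single-symbol probe sets whose excursion was the lowest of the 44 hours at hour 27, the 12 largest downward were those of Kif13b (-2.03), 1500011B03Rik (-1.21), Sesn1 (-1.18), Thbs1 (-1.14), A430046D13Rik (-1.06), Nkap (-1.03), Scn7a (-1.0), D130051D11Rik (-0.99), Agpat1 (-0.97), Kif1b (-0.89), Lpar2 (-0.87) and Mastl (-0.87). In Lpar2 hour 25 was lower still, with 6.83 against 6.94 at hour 27. Mastl read 7.88 at hour 27, close to its median of 7.85 over the other 43 arrays, while hours 24 and 30 read 8.40 and 8.32. Mastl at hour 27 was thus low against the hours around it, but not against the whole series. Of the 12 genes 10 had several probe sets above the minimum, and only in Scn7a, a sodium channel family gene, were 2 of them past 1.5-fold. Scn7a read 10.43, 10.60, 9.41, 10.26 and 10.36 in the selected probe set and 12.23, 12.15, 11.31, 11.62 and 12.03 in the other. In Kif13b, a kinesin, the brightest probe set read 13.40, 13.39, 13.39, 13.41 and 13.38, a difference of -0.01. The probe sets that did not choose a gene were past 1.5-fold in the same direction in 4 of 6 cases upward and 1 of 18 downward. These counts are not like for like, because the 12 upward values were all at least 2.46 whereas the downward ones ran to -0.87.

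**Figure D5:**
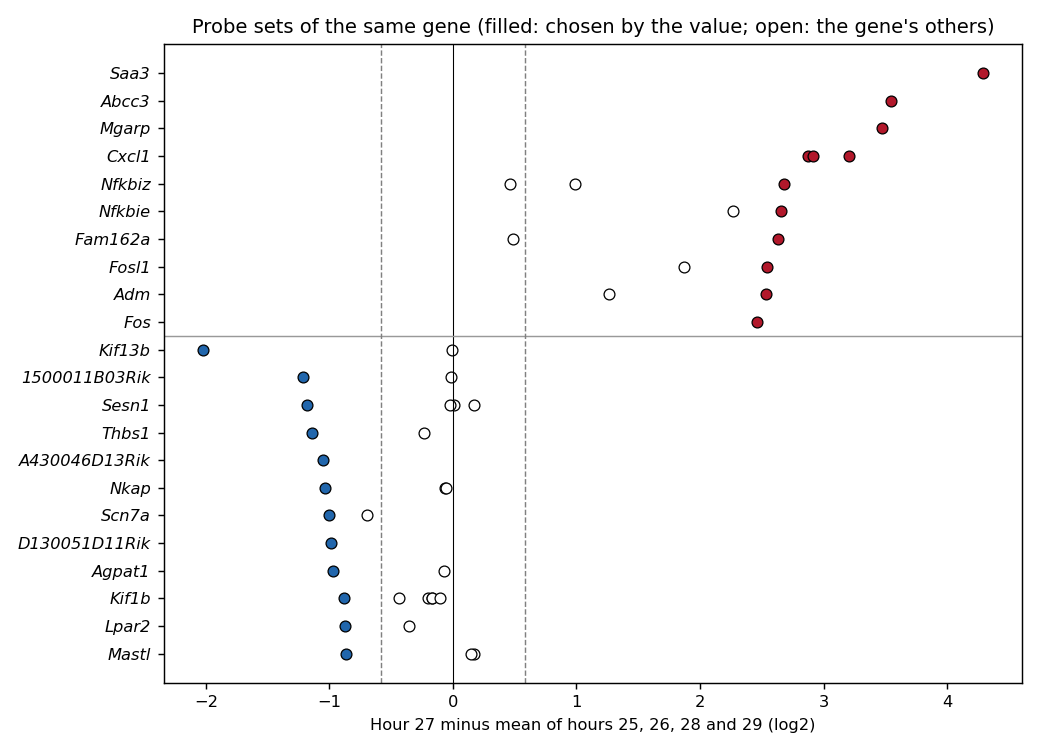
Difference between hour 27 and its 4 neighbours (horizontal axis, log2) for every probe set above the level minimum of the genes (vertical axis) with the 12 largest upward and 12 largest downward values among probe sets at their extreme of the 44 hours. Filled points were chosen by the value and open points are the other probe sets of the gene; dashed lines mark 1.5-fold, and 4 of 6 open points lie beyond it upward and 1 of 18 downward.

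Matches to promoter motifs among the genes past 1.5-fold are given as counts. Over all promoters, 5.93% held the kappa B consensus, 16.6% ACGTG and 17.8% TGACG. The kappa B search was made after the values had been seen. The lists were drawn up by pathway, so that the counts test no cause. Of the 10 NF-κB and chemokine genes 6 had a promoter in the RefSeq table, and 5 of these (Nfkbia, Nfkbie, Nfkb2, Cxcl1 and Il6) held the kappa B consensus. Of 9 hypoxia genes 8 had a promoter, of which 5 (Bnip3, Egln1, Egln3, Ankrd37 and Hk2) held ACGTG and 0 the kappa B consensus. Of 9 immediate early genes 7 had a promoter, of which 5 (Fos, Egr2, Atf3, Klf2 and Maff) held TGACG and 4 the kappa B consensus. The motifs were not limited to 1 list each, since TGACG was also found in 3 NF-κB genes (Nfkb2, Cxcl1 and Il6) and 2 hypoxia genes (Egln3 and Hk2), and ACGTG in 3 immediate early genes (Egr2, Ier3 and Maff) and in Cxcl1. The D-box TTATGTAA was found in none of these and in 0.819% of all promoters, and the AP-1 element TGANTCA, present in 6.75% of all, in 3 NF-κB genes, Nfkbie, Nfkb2 and Il6.

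The pattern of hour 27 was compared with the 35 hours that share no array with its window. Across the 22518 probe sets, which are not independent replicates, Pearson's r between excursions lay between -0.45 (hour 39) and 0.41 (hour 54), and at hour 51 it was -0.07. At hour 51 the median excursion was 0.02 for the NF-κB list, 0.02 for the hypoxia list and -0.05 for the immediate early list. The hypoxia and immediate early lists had their highest medians of these hours at hour 45, with 0.22 and 0.30, and hour 45 was also where the core clock list reached 0.41, above its 0.19 at hour 27.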

How the data were processed

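NIH3T3 RNA had been hybridized to Affymetrix Mouse Genome arrays, 1 per hour from hour 20 to hour 67. The deposited values were intensities on a linear scale, summarized per probe set by the authors. Their methods name GCRMA, whereas the processing notes name MAS5, and no version of either is given in the sources used here. Values had a common floor, and the 25th percentile of log2 values was 5.48, so that levels near it carry no fold. The hour was taken from each sample's title, because the treatment field gives 20 hours for every sample. Values were taken to log2 without a pseudocount. Of 45037 probe sets, 34945 had 1 gene symbol, 932 several and 9160 none, and symbols were updated through gene identifiers to RefSeq (GRCm38.p6).

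The excursion at hour 27, its rank among 44 hours, and the counts past 1.5-fold were computed in Python 3.11.15 with numpy 2.4.6 and pandas 2.3.3. The 24-h cosine was tested with limma 3.58.1 in R 4.3.3 at an adjusted p of 0.05. Both steps were tested on simulated data. The genes named were those of the selection, the core clock and clock output lists, the 12 largest upward and downward excursions that were also the extreme of the 44 hours, and up to 4 per list past 1.5-fold; further genes were named as examples after their values were seen. The members, lists and rules were chosen with earlier results of these data known. Each number rests on single arrays, and their number limits the precision.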

Additional observations from a re-analysis of the deposited data

How the results depend on the processing

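Of 1078 values of the 77 named probe sets under 14 alternatives, 1045 moved by less than 1 SD of that probe set's excursions at the 35 other hours, 33 moved further and 0 reversed. The upward count of 558 became 94 with the level minimum at the 75th percentile and 182 at 2-fold. The downward count of 448 became 20 and 78 there, 258 with 6 neighbours, 249 as a residual from the cosine fit to the other 47 arrays, 298 with the β-actin difference removed and 249 with the first principal component removed. Leaving out each neighbour gave 558 to 651 upward and 352 to 602 downward. The NF-κB median of 1.67 became 1.58 as a residual from the cosine fit and 1.33 with the first principal component removed. In both cases 10 members were past 1.5-fold. The median lay between 1.64 and 1.70 when each neighbour was left out. The medians of the hypoxia and immediate early lists stayed within 1 SD under the 14 alternatives. The 91 cosine calls became 30 without the linear term and 155 over probe sets above the minimum. The causes were not tested. Differences at the floor of the intensities depend on the pseudocount: with 64 added, the excursion of Ciart was 3.41 and that of Rgs16 0.91. No paired analysis was possible because each hour has 1 array.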

Other observations

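Genes outside the lists that had their highest excursion of the 44 hours at hour 27 are given here as values, and all were picked after their values were seen. Birc3, an inhibitor of apoptosis, exceeded its neighbours by 2.24 and 1.68 in 2 probe sets, Zc3h12a, an RNase that degrades cytokine mRNAs, by 1.99, and Tlr2, a receptor of bacterial lipoproteins, by 1.10. The death receptor gene Fas was higher by 1.73. Further values were those of the adenylate kinase Ak4 (2.17 and 1.44), the muscle glycogen synthase Gys1 (2.02 and 1.30), Hilpda (1.73), Ero1a (1.64 and 1.07) and the collagen hydroxylase Plod2 (1.12 and 1.08). Noct, which encodes nocturnin, was higher by 1.35.

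Among probe sets below the level minimum, 31 with a single symbol were past 2-fold with their highest excursion at hour 27. Of 29 probe sets with no symbol that met the same criteria above the minimum, the largest excursion belonged to one that read 12.47 at hour 27 against a neighbour mean of 9.80. Mt1 was higher by 2.29 in 1 probe set but by 0.24 in its brightest probe set.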
